A study of Pyrocoelia pectoralis with 6 samples.

Results

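RI129_011075 and RI129_011076 are genes with consecutive identifiers in the firefly Pyrocoelia pectoralis. Both were described by the authors as luciferin 4-monooxygenase, another name of firefly luciferase. They were chosen by identifier from the 12533 genes of the deposited table as 1 gene abundant in both organs and 1 lower in the luminous organ. Their difference between organs is therefore given as a description, with no test. The study sequenced messenger RNA of male fireflies in 6 libraries. The luminous organ, or lantern, gave 3 of them, and a tissue labelled only as the non-luminous organ gave the other 3. The labels give no strain, treatment or age, and none says whether replicates are separate animals, so the spread between them may be partly technical. Levels are FPKM, a number of reads or fragments scaled to gene length and to the library total.

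Firefly luciferase activates luciferin with ATP and then oxidises it with oxygen, and the excited product releases light. The enzyme is held in peroxisomes, organelles that also break down fatty acids. It belongs to the same enzyme family as the fatty acyl-CoA synthetases, which join fatty acids to coenzyme A after the same first step with ATP, and firefly luciferase itself can carry out that joining. Insects carry several genes of this family that resemble luciferase in sequence and are not known to make light. A description as luciferin 4-monooxygenase rests on sequence similarity and does not say which reaction a protein carries out.

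The annotation of the pair was the same in every field. The protein that each gene matched best was the luciferase of Photuris pensylvanica, another firefly, which was also the best match of 14 other genes in the table. Both carried 5 Gene Ontology terms, for the peroxisome, ATP binding, metal ion binding, luciferin 4-monooxygenase activity and bioluminescence. All 5 terms were shared by 27 of the 31 genes with this description, so the annotation did not tell the pair apart from the others or from each other. RI129_003463, the gene of this description that was high in the luminous organ and near 0 in the other, was matched to the luciferase of Photinus pyralis instead.

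The FPKM values also held the gene length that the authors used. Since a low FPKM value is a small whole number of reads times a fixed step, library totals could be read from the values, at 18.04 to 20.42 M reads (M for mega), and 99.65% of 2000 genes sampled gave whole reads within 0.05 of a read. With these totals, RI129_011075 had a length of 885 bases and RI129_011076 a length of 2012 bases, so the first was 0.44 times as long as the second. Each length holds up to a whole factor, since reads that share a divisor in all 6 libraries cannot be told from fewer reads of a shorter gene. RI129_003463 had 1647 bases. Of 1479 sampled genes, 96.2% had lengths that were multiples of 3, so these are coding lengths for nearly all genes.

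The length of RI129_011075 was short for this family. The other 18 genes of the description with at least 200 reads had a median of 1570.5 bases and a range of 542 to 3345, and 9 of them had 1500 to 1800 bases. RI129_011075 was longer than 4 of these 18, and 2 of them were longer than RI129_011076. The 26 acyl-CoA ligase genes outside the description had a median of 1720.5 bases. The length of RI129_011075 was a multiple of 3 and that of RI129_011076 was not. Whether either gene model is complete, or how reads were shared between similar copies, was not tested.

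RI129_011075 was abundant in both organs. It stood at 416, 433 and 658 FPKM in luminous replicates 1, 2 and 3, against 348, 345 and 306 FPKM in the non-luminous replicates. Every luminous library lay above every non-luminous library, and luminous replicate 3 lay well above the other two. The means were 502 ± 135 FPKM in luminous libraries, against 333 ± 23.2 FPKM in non-luminous libraries (SD, n = 3 each), a 1.51-fold ratio. The gap between the organ means was larger than either SD. It rested partly on luminous replicate 3, without which the ratio of means was 1.28. The lowest luminous library was 1.20 times the highest non-luminous library.

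RI129_011076 was the gene of the pair that was lower in the luminous organ. It stood at 6.35, 7.45 and 4.49 FPKM in luminous replicates 1, 2 and 3, against 54.8, 24.2 and 50.6 FPKM in the non-luminous replicates. The groups did not overlap, and non-luminous replicate 2 lay far below the other non-luminous libraries. The means were 6.10 ± 1.498 FPKM in luminous libraries, against 43.2 ± 16.6 FPKM in non-luminous libraries (SD, n = 3 each), so the non-luminous mean was 7.09 times the luminous one. With 1 library left out in turn, that ratio was 6.14 to 8.64. The lowest non-luminous library still held 3.26 times the level of the highest luminous library.

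**Figure D1:**
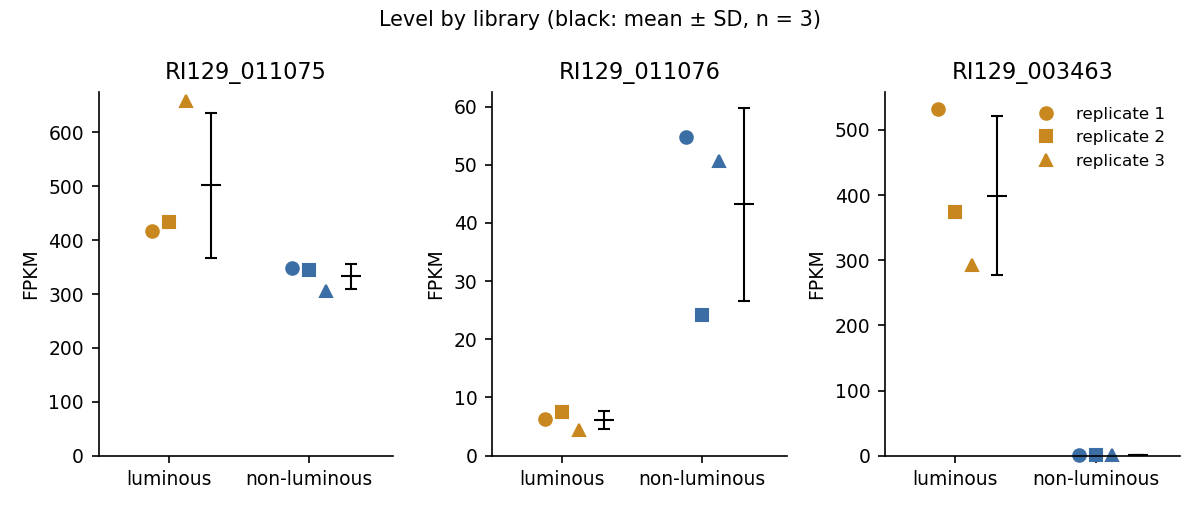
FPKM (linear axes, each panel with its own range) of RI129_011075, RI129_011076 and RI129_003463 in the 3 luminous and 3 non-luminous libraries; coloured points are libraries, black bars are mean ± SD. RI129_011075 is high in both organs, RI129_011076 is at 4.49 to 7.45 FPKM in the luminous organ and at 24.2 to 54.8 FPKM in the non-luminous organ, and RI129_003463 is near 0 in the non-luminous organ.

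On the log2(FPKM + 1) scale the luminous minus non-luminous difference was 0.56 for RI129_011075 and -2.58 for RI129_011076. Over the 9863 genes that reached a mean of 1 FPKM, the groups did not overlap for 46.1%, with the luminous organ higher for 17.4% and lower for 28.7%. Nothing is read from the lack of overlap of the pair, since the pair was chosen by its values in this contrast. A lower level in an organ can come from fewer cells that hold the transcript or from less transcript per cell, and these cannot be told apart in bulk RNA.

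RI129_011075 was read 26239 times in the luminous libraries and 16301 times in the non-luminous libraries. RI129_011076 was read 733 times in the luminous libraries, with 256, 306 and 171 reads in replicates 1, 2 and 3, and 4810 times in the non-luminous libraries, with 2078, 896 and 1836 reads. The exact 95% Poisson interval of the lowest, luminous replicate 3, was 3.84 to 5.21 FPKM, and that of non-luminous replicate 2 was 22.7 to 25.9 FPKM. Both intervals cover counting error only, and both were narrower than the spread between libraries of their organ.

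The spread between libraries of 1 organ differed between the pair. In the non-luminous organ, RI129_011076 had an SD of 0.63 on the log2 scale, above 98.8% of the 3366 genes within 2-fold of its level, whose median SD was 0.13. RI129_011075 had an SD of 0.10 there, above 31% of 506 genes of like level. In the luminous organ RI129_011075 had an SD of 0.36, above 76.4% of 314 genes of like level. RI129_011076 had an SD of 0.32 there, above 52.6% of 2344 genes. The 1 added to FPKM before taking log2 shrinks the SD of RI129_011076 more, at its lower level. The order of these 2 SDs is therefore not read. Non-luminous replicate 2 was the lowest of its organ for 36.5% of all tested genes, and luminous replicate 3 was the highest of its organ for 27.0%, so neither library was low or high throughout.

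Midgut marker genes, 99 genes chosen by words such as trypsin and carboxypeptidase, were lower in sum in the luminous organ, like RI129_011076. They summed to 2363, 1280 and 1211 FPKM in luminous replicates 1, 2 and 3, against 7508, 5805 and 7347 FPKM in the non-luminous replicates. Non-luminous replicate 2 was the lowest of its organ for both, but the luminous libraries fell in another order, with RI129_011076 highest in replicate 2 and the markers highest in replicate 1. Calls by limma are given here beside 9.63% higher and 17.0% lower over all 9863 genes tested. Of 56 tested midgut markers, 3 were called higher and 28 lower in luminous libraries, and 17 of the 99 were at 0 in all luminous libraries, against 3 in all non-luminous libraries. Fat body markers went both ways: of 9 tested 3 were called higher and 4 lower, and none of the 10 was at 0 in all libraries of an organ. Their sums were 1264, 1536 and 1972 FPKM in luminous replicates 1, 2 and 3, against 1219 to 1314 FPKM in the non-luminous libraries, and rested on 1 gene for iron-binding transferrin, RI129_001986. That gene stood at 748, 996 and 1504 FPKM in luminous replicates 1, 2 and 3, against 515, 468 and 467 FPKM in the non-luminous replicates. Without it, which was tried after the values were seen, the direction turned, with sums of 516, 540 and 468 FPKM in luminous replicates 1, 2 and 3, against 799, 750.5 and 835 FPKM in the non-luminous replicates. The 3 genes for apolipophorins, the lipid carriers of the blood, were all called lower, at log2 differences of -1.24 to -1.08. The transferrin gene RI129_000247 was also called lower, at -3.81 (limma adjusted p = 0.000669). The hexamerin gene RI129_012781 and the transferrin gene RI129_001054 were called higher, at 1.735 and 0.831 (limma adjusted p = 0.00538 and 0.0489). RI129_001986 was called higher too, at 1.10 (limma adjusted p = 0.0156). Muscle markers summed to 55555 to 61523 FPKM in the luminous libraries and 22605 to 29471 FPKM in the non-luminous libraries, with 9 of 14 called higher, 1 lower and none at 0. Nerve markers summed to 580 to 694 FPKM in luminous libraries and 402 to 480 FPKM in non-luminous libraries. They went both ways, with 3 called higher and 2 lower of 14 tested. Epidermis markers summed to 658 to 832 FPKM in luminous libraries and 269 to 489 FPKM in non-luminous libraries. Of 21 epidermis markers tested, 7 were called higher and 1 lower. Of the nerve markers none was at 0 throughout an organ, and of the epidermis markers 1 was at 0 in the luminous organ and 5 in the non-luminous organ. The summed levels of Malpighian tubule markers, 3322 to 5713 FPKM in luminous libraries and 4015 to 4539 FPKM in non-luminous libraries, overlapped, and none was at 0. Testis markers summed to 166 to 173 FPKM in luminous libraries and 191 to 196 FPKM in non-luminous libraries. Of these, 2 were at 0 in the luminous organ. Limma called 2 Malpighian tubule markers higher and 5 lower of 21 tested, and 0 testis markers higher and 3 lower of 22 tested. The part of any of these tissues in the levels of the pair was not tested.

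Within each library RI129_011075 exceeded RI129_011076, by a much wider margin in the luminous organ. The ratio of their FPKM values was 65.6, 58.2 and 147 in luminous replicates 1, 2 and 3, against 6.36, 14.2 and 6.05 in the non-luminous replicates. The ranges were far apart, and the highest ratio of each organ came from the library that stood apart above. The mean ratio was 90.1 ± 49.1 in the luminous organ and 8.87 ± 4.62 in the non-luminous organ (SD, n = 3 each). The ratio of reads, not scaled to the 885 and 2012 bases of the gene models, was smaller, at 28.8, 25.6 and 64.5 in luminous replicates 1, 2 and 3, against 2.80, 6.25 and 2.66 in the non-luminous replicates. By FPKM, without luminous replicate 3 the luminous mean was 61.9, and without non-luminous replicate 2 the other mean was 6.21. Added together, the pair gave 423 to 662 FPKM in the luminous libraries and 357 to 403 FPKM in the non-luminous libraries, a sum made mostly by RI129_011075 in both organs.

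RI129_011075 had the highest FPKM of the 31 luciferin 4-monooxygenase genes in 5 of the 6 libraries. In luminous replicate 1 it was second to RI129_003463. Among all 12533 genes it ranked 257, 238 and 183 in luminous replicates 1, 2 and 3, and 310, 311 and 362 in the non-luminous replicates. RI129_011076 ranked 9, 10 and 12 among the 31 genes in the luminous replicates, and 2, 6 and 2 in the non-luminous replicates. By its mean it was second to RI129_011075 in the non-luminous organ, and at rank 11 in the luminous organ.

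**Figure D2:**
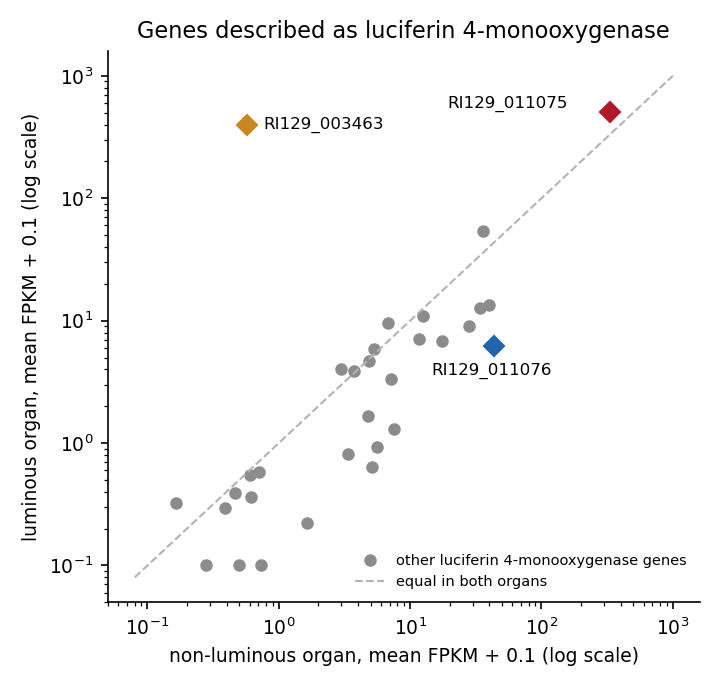
Mean FPKM + 0.1 in the luminous organ (vertical, log scale) against the non-luminous organ (horizontal, log scale) for the 31 genes described as luciferin 4-monooxygenase; the dashed line marks equal levels. RI129_011075 lies highest in both organs, RI129_011076 lies below the line at 6.10 against 43.2 FPKM, and RI129_003463 lies far above it.

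The summed FPKM of the 31 genes was 1058 ± 61.4 in the luminous organ and 617 ± 14.0 in the non-luminous organ (SD, n = 3 each). RI129_011075 held 37.8%, 43.9% and 60.5% of that sum in luminous replicates 1, 2 and 3, against 55.5%, 55.4% and 51.0% in the non-luminous replicates. Its shares overlapped between organs although its levels did not, and only luminous replicate 3 exceeded the non-luminous shares. RI129_011076 held 0.413% to 0.754% in the luminous libraries and 3.90% to 8.73% in the non-luminous libraries. RI129_003463 held 26.9% to 48.3% in the luminous libraries and less than 0.1% in each non-luminous library. The other 28 genes summed to 133 to 173 FPKM in the luminous libraries and 224 to 252 FPKM in the non-luminous libraries.

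**Figure D3:**
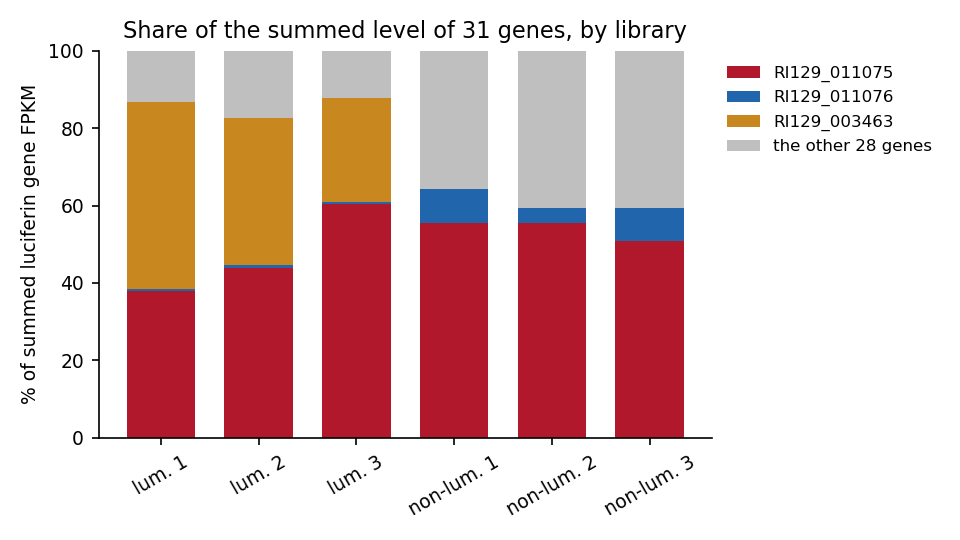
Share of the summed FPKM of the 31 luciferin 4-monooxygenase genes (percent) held by RI129_011075, RI129_011076, RI129_003463 and the other 28 genes, one bar per library. RI129_011075 holds 37.8% to 60.5% in the luminous libraries and 51.0% to 55.5% in the non-luminous libraries.

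Which of the 2 most abundant genes of the luminous organ came first depended on the library and on scaling to length. RI129_003463 stood at 532, 374 and 292 FPKM in luminous replicates 1, 2 and 3, so RI129_011075 was at 0.783, 1.16 and 2.25 times its FPKM. On the scale of RPM, reads per mega of library reads and not divided by length, RI129_011075 had 368, 383 and 582 and RI129_003463 had 876, 616 and 481 in the same libraries. The ratio of reads was then 0.421, 0.622 and 1.21. RI129_011075 was ahead in 2 of 3 luminous libraries by FPKM and in 1 of 3 by reads, and the 885 bases of its gene model account for that shift by the construction of the unit. Replicates have no order, and the 2 genes ranked the 3 luminous libraries the opposite way.

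**Figure D4:**
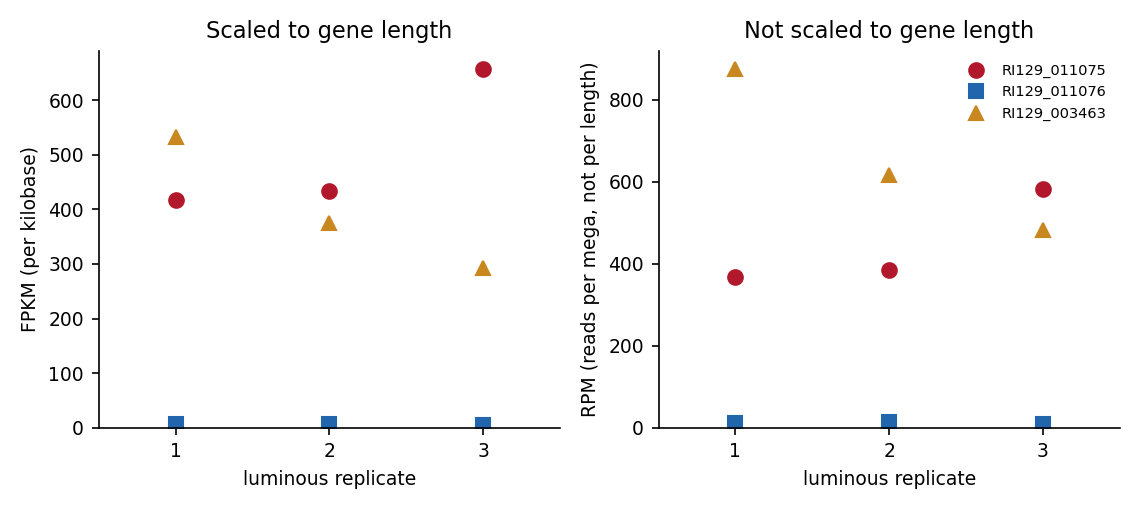
Level of RI129_011075, RI129_011076 and RI129_003463 in the 3 luminous libraries as FPKM (left) and as RPM, which is not scaled to length (right); each point is a library. RI129_011075 is above RI129_003463 in replicates 2 and 3 by FPKM, and in replicate 3 alone by RPM.

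The other genes with the same description were mostly lower in the luminous organ. Of the other 29, 19 reached a mean of 1 FPKM, and limma called 2 of them higher, 11 lower and 6 neither, at a Benjamini-Hochberg adjusted p under 0.05. Over all 9863 genes tested, 9.63% were called higher and 17.0% lower. The median log2 difference was -0.95 for the 19 genes and -0.10 over all genes tested. This direction was known from earlier results on these data and is no independent support. The count lower was 4 if luminous replicate 3 was left out, 5, 5 and 3 if non-luminous replicates 1, 2 and 3 were, and 6 after quantile normalization, when 2 were higher.

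Within this family, RI129_003463 was higher by 8.05 on the log2 scale (SE 0.223, limma adjusted p = 4.02e-06), at 399 ± 122 FPKM in luminous libraries, against 0.474 ± 0.139 FPKM in non-luminous libraries (SD, n = 3 each), and it was called under all 13 alternatives. The other gene called higher, RI129_011128, stood at 53.5 ± 3.45 FPKM in luminous libraries, against 35.6 ± 8.39 FPKM in non-luminous libraries. With limma its adjusted p was 0.0491, a call lost without each of the 6 libraries in turn (0.0299 to 0.131 over the alternatives). RI129_011128 had a coding length of 960 bases, also short for the family, and was the third by mean FPKM over the 6 libraries. RI129_003467 stood at 13.4 ± 8.94 FPKM in luminous libraries, against 39.7 ± 4.77 FPKM in non-luminous libraries, with limma adjusted p = 0.0172, a call lost if luminous replicate 3 or non-luminous replicate 2 or 3 was left out (0.000803 to 0.0689 over the alternatives). The largest called negative differences were those of RI129_010673 and RI129_000151, at -1.92 and -1.90 (limma adjusted p = 0.00212 and 0.011), both called under the 12 alternatives that tested them.

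At a pseudocount of 1 RI129_011076 had the lowest log2 difference among the tested genes of the family, at -2.58, where the 19 other tested genes ran from -1.92 to 8.05. That place depends on the pseudocount, which shrinks the differences of genes at low levels. At a pseudocount of 0.1 RI129_011076 stood at -2.75, behind RI129_010672 at -3.32 and RI129_000151 at -3.10, and at a pseudocount of 5 it was again the lowest at -2.06. RI129_010672 was low in both organs, at 0.542 ± 0.642 FPKM in luminous libraries, against 5.05 ± 3.47 FPKM in non-luminous libraries (SD, n = 3 each). Consecutive identifiers within the family gave 15 other pairs, so the gap between neighbours could be set beside that of RI129_011075 and RI129_011076. The log2 differences of RI129_011075 and RI129_011076 were 3.14 apart. The other pairs were 0.098 to 8.13 apart, with a median of 0.609, and the 2 pairs with a larger gap both held RI129_003463. Of these 15 pairs, 9 had both genes tested. The rest held a gene under a mean of 1 FPKM, whose difference the pseudocount shrinks. Pairs share genes, and the pair described here was chosen for its gap, so this is a description. In the run RI129_010738 to RI129_010740, the neighbours RI129_010739 and RI129_010740 both were lower, at -1.74 and -1.50 (limma adjusted p = 0.0239 and 0.0156).

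The genes around the pair by identifier were called no more often than genes at large. Of the 10 identifiers on each side, 19 were in the table and 13 were tested, of which limma called 0 higher and 1 lower, and 0 were higher at an unadjusted p under 0.05. Over all 9863 genes tested 9.63% were called higher and 17.0% lower, and 1476 were higher at an unadjusted limma p under 0.05. With 13 genes these counts are no result about the neighbours. The gene called lower was GK3 (RI129_011071), a glycerol kinase, which phosphorylates glycerol, with a log2 difference of -0.87 (SE 0.139, limma adjusted p = 0.00569) and a call under all 13 alternatives. It stood at 35.5 ± 2.24 FPKM in luminous libraries, against 66.1 ± 10.4 FPKM in non-luminous libraries (SD, n = 3 each). On the side of RI129_011075, Cdk5rap3 (RI129_011074), described as a CDK5 regulatory subunit-associated protein, stood at 32.1 ± 5.21 FPKM in luminous libraries, against 42.1 ± 0.789 FPKM in non-luminous libraries, and was not called (adjusted p = 0.0828). On the side of RI129_011076, Tomm20 (RI129_011077), a receptor for protein import into mitochondria, stood at 135 ± 18.5 FPKM in luminous libraries, against 135 ± 15.8 FPKM in non-luminous libraries. Farther out, tsku (RI129_011065), described as Tsukushi, had the lowest log2 difference of the neighbours, at -1.24. It stood at 0.739, 0.524 and 1.78 FPKM in luminous replicates 1, 2 and 3, against 2.62, 2.15 and 7.48 FPKM in the non-luminous replicates. The groups did not overlap, and tsku was not called (limma adjusted p = 0.0722).

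**Figure D5:**
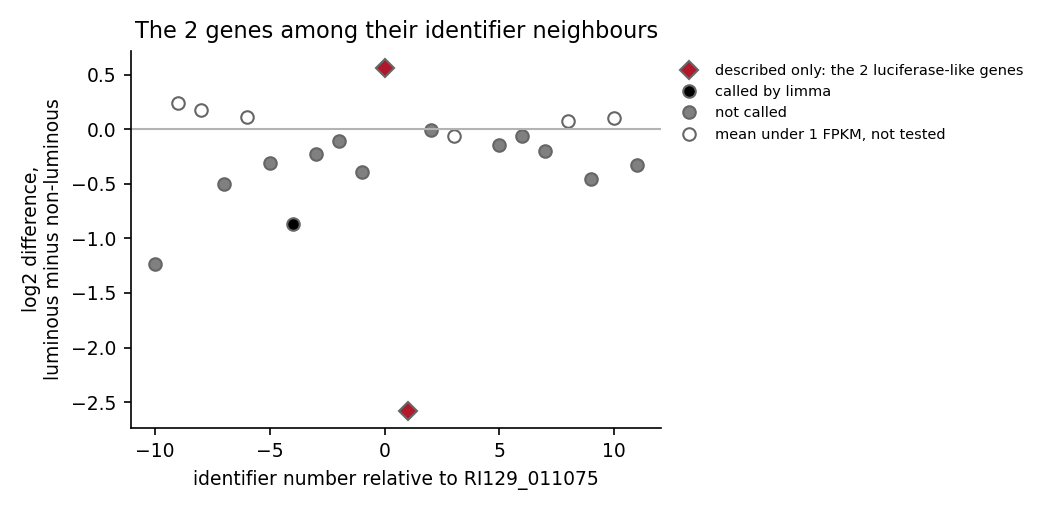
Log2 difference (luminous minus non-luminous, log2(FPKM + 1) scale) against identifier number relative to RI129_011075; diamonds are RI129_011075 and RI129_011076, circles are the 19 neighbours in the table. The diamonds lie at 0.56 and -2.58 and the neighbours between -1.24 and 0.24.

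The genes with the most similar pattern over the 6 libraries were different for the 2 genes. Similarity was the root mean square difference between log2(FPKM + 1) profiles, each centred on its own mean, over all tested genes with a description. For RI129_011075 the nearest was lz (RI129_009942), described as Lozenge, a Runt-domain transcription factor in Drosophila, with a distance of 0.034. It stood at 13.5, 13.7 and 22.0 FPKM in luminous replicates 1, 2 and 3, against 10.7, 10.9 and 10.04 FPKM in the non-luminous replicates, so that RI129_011075 held 29.9 to 32.7 times its level in every library. The next were Clvs2 (RI129_004802), morn3 (RI129_006190), the fatty acyl-CoA reductase gene CG5065 (RI129_013262) and LAC (RI129_012492), at distances of 0.062 to 0.083. At a pseudocount of 0.1, tried after the values were seen, lz was again the nearest, and of the other 4 only morn3 left the nearest 5, at place 140. The closest gene of the luciferin family, RI129_011128, was in place 542 with a distance of 0.235. The table held 9405 genes with a description, those not tested included, so close profiles can come from the search alone. Shared regulation was not tested.

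For RI129_011076 the nearest was d2hgdh (RI129_005396), a mitochondrial enzyme that oxidises D-2-hydroxyglutarate, with a distance of 0.117. It stood at 12.9, 13.8 and 10.7 FPKM in luminous replicates 1, 2 and 3, against 116, 52.3 and 112 FPKM in the non-luminous replicates. Its ratio to RI129_011076 was 1.85 to 2.39 over the 6 libraries, and it had the same low non-luminous replicate 2. At a pseudocount of 1 the next were 2 glycosyltransferase genes, UGT5 (RI129_010300) and UTG2 (RI129_003653), the organic cation transporter gene Orct (RI129_001519) and the cytochrome P450 gene CYP9E2 (RI129_010431), at distances of 0.194 to 0.211. Those last 4 averaged 0.0719 to 0.350 FPKM in the luminous organ and 4.77 to 7.21 FPKM in the non-luminous organ. These 4 places rest on the pseudocount. At a pseudocount of 0.1 d2hgdh was again the nearest, with a distance of 0.114, and UGT5, UTG2, Orct and CYP9E2 were in places 961, 4693, 2859 and 140. The closest gene of the luciferin family at a pseudocount of 1, RI129_000151, was in place 91.

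Acyl-CoA ligase genes outside the description, which activate fatty acids or similar acids in the same way, went both ways. Of 26 tested, limma called 5 higher and 6 lower, 19.2% and 23.1%, against 9.63% and 17.0% of all genes. After quantile normalization 8 were higher and 4 lower. Their median log2 difference was -0.31, against -0.10 over all genes. The 4-coumarate-CoA ligase-like gene 4cl1 RI129_007505 was higher by 1.71 (limma adjusted p = 0.00795), at 44.5 ± 16.1 FPKM in luminous libraries, against 12.8 ± 4.20 FPKM in non-luminous libraries, and 4cl3 RI129_007575 fell by 1.99 on the log2 scale (adjusted p = 0.00133), at 8.06 ± 1.34 FPKM against 35.3 ± 7.28 FPKM. Both were called under all 13 alternatives. The most abundant ligases of this list were the long-chain fatty acid ligases ACSL3 (RI129_004204) and Acsl6 (RI129_010010). ACSL3 stood at 177 ± 6.26 FPKM in luminous libraries, against 236 ± 38.6 FPKM in non-luminous libraries. Acsl6 stood at 101 ± 17.3 FPKM in luminous libraries, against 73.4 ± 4.63 FPKM in non-luminous libraries. Neither was called (limma adjusted p = 0.0751 and 0.0642). Of the 13 alternatives, 1 gave a call for ACSL3 and 3 gave a call for Acsl6 (lowest limma adjusted p = 0.0341 and 0.0255). RI129_011075 stood above every gene of the ligase list by mean FPKM in both organs. In the non-luminous organ that order rests on scaling to its 885 bases. By RPM, which is not scaled to length, ACSL3 with its 1974 bases was ahead in the non-luminous organ, and RI129_011075 in the luminous organ. RI129_011075 then averaged 445 ± 119 RPM in luminous libraries and 295 ± 20.6 RPM in non-luminous libraries, and ACSL3 averaged 349 ± 12.3 RPM in luminous libraries and 465 ± 76.2 RPM in non-luminous libraries (SD, n = 3 each). With 1 library left out, 1 to 7 ligases were higher and 1 to 6 lower, with the lowest counts of both without non-luminous replicate 3.

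Peroxisome genes, of the organelle named in the annotation of the pair, were called lower or not called. Of 38 tested, limma called 0 higher and 10 lower, 0% and 26.3%, against 9.63% and 17.0% of all genes. At an unadjusted limma p under 0.05, 1 of the 38 was higher, against 1476 of all 9863 genes tested. After quantile normalization 2 were higher and 9 lower. The import receptor gene PEX5 (RI129_006075), which binds the targeting signal at the end of proteins such as luciferase, was chosen after its values were seen. It stood at 109 ± 7.97 FPKM in luminous libraries, against 109 ± 5.77 FPKM in non-luminous libraries. PEX13 (RI129_003542), of the import machinery in the peroxisome membrane, stood at 114 ± 26.6 FPKM in luminous libraries, against 185 ± 13.4 FPKM in non-luminous libraries (limma adjusted p = 0.0209), a call lost if luminous replicate 3 or non-luminous replicate 2 or 3 was left out (0.00364 to 0.0793 over the alternatives). PHYH (RI129_010044), which starts the breakdown of phytanic acid, fell by 1.63 on the log2 scale (adjusted p = 0.00868) and was called under all 13 alternatives. The count lower was 5 if luminous replicate 3 was left out, and 4 and 1 if non-luminous replicates 2 and 3 were.

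Genes of fatty acid oxidation, which uses the acyl-CoA that ligases make, had more members lower. Of 37 tested, limma called 1 higher and 18 lower, 2.7% and 48.6%, against 9.63% and 17.0% of all genes, with a median log2 difference of -0.48. The most abundant was Echs1 (RI129_009926), an enoyl-CoA hydratase, at 1095 ± 84.9 FPKM in luminous libraries, against 1672 ± 294 FPKM in non-luminous libraries. Its call (limma adjusted p = 0.0366) held under 6 of the 13 alternatives. Cpt1a (RI129_008941), a carnitine palmitoyltransferase, was not called, at -0.097 (limma adjusted p = 0.603). ACADSB (RI129_000986) is described as an acyl-CoA dehydrogenase specific for short or branched chains. It stood at 335 ± 76.3 FPKM in luminous libraries, against 800 ± 109 FPKM in non-luminous libraries (limma adjusted p = 0.00541). The carnitine acetyltransferase gene Crat RI129_005433 fell by 1.94 on the log2 scale (adjusted p = 0.00338), and both were called under all 13 alternatives. The member called higher, hpo-8 (RI129_004413), is described as a dehydratase of very-long-chain fatty acid elongation, and its log2 difference was 0.53 (limma adjusted p = 0.0269, lost without any 1 library but luminous replicate 2, with 0.00862 to 0.101 over the alternatives). HACD3 (RI129_001467), described as a dehydratase of the same kind, was among the 18 called lower, at -0.58 (limma adjusted p = 0.0132). The count lower was 9 if luminous replicate 3 was left out, and 8 and 5 if non-luminous replicates 2 and 3 were. The peroxisome and oxidation lists share the acyl-CoA oxidase genes.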

How the data were processed

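Messenger RNA of 3 luminous and 3 non-luminous libraries was given as FPKM by the authors in 1 deposited table of 12533 genes. Per the labels' protocols, Trizol was used for extraction and a stranded mRNA kit for the libraries. The tools named, per the submitters' processing notes, were HTSeq, HISAT2, Trimmomatic and R 3.2.0, whose roles are not stated there. The build, the annotation and the strand setting were not given in the sources used here.

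Values were analysed as log2(FPKM + 1) with limma 3.58.1 in R 4.3.3 (intensity trend, no block, two-sided, Benjamini-Hochberg adjustment over the 9863 genes that reached a mean of 1 FPKM, called under 0.05). The unit understates changes of low genes. Depth, reads and lengths were recovered with Python 3.11.15 from the steps between low values, and the procedure and the limma fit were checked on simulated data. Read numbers cover counting error only. The comparison was the luminous minus the non-luminous organ, with groups taken from the tissue label. The labels do not say that replicates are separate animals, so p-values cover only how these libraries vary, in part perhaps for technical reasons.

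Lists were made by words in descriptions or symbols, and some members may not belong. The members, lists and tests were chosen with earlier results of these data known. Named genes were, per list, the 3 most abundant and the 2 largest called differences in each direction, besides the 3 nearest identifiers on each side, any called neighbour and the 5 most similar profiles. The text uses a subset of these. It also names genes outside these rules, which were chosen after their values were seen. They are RI129_010672, RI129_010739, RI129_010740, tsku, HACD3, PEX5 and the fat body genes named singly. No sequences of the genes were used here. Alternatives were 2 rescalings, 2 other pseudocounts, 2 other filters, a replicate block and each library left out.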

Additional observations from a re-analysis of the deposited data

How the results depend on the processing

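The log2 difference kept its sign under all 13 alternatives for both genes: 0.35 to 0.68 for RI129_011075 and -2.94 to -2.06 for RI129_011076, with -2.06 at a pseudocount of 5. With 1 library left out, RI129_011075 gave 0.35 to 0.68 and RI129_011076 gave -2.94 to -2.37, and the ratio of RI129_011075 to RI129_011076 was 61.9 to 106 in the luminous organ and 6.21 to 10.3 in the non-luminous organ.

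Counts of called genes depended more on the setting. Power is lower in fits on 5 libraries, but the count over all genes also depended on which library was left out. It was 2648 and 2618 without luminous replicates 1 and 2, and 1606 without luminous replicate 3. Without non-luminous replicates 1, 2 and 3 it was 1532, 1577 and 1119. Leaving out 1 library gave 1119 to 2648 calls over all genes, against 2626 with all libraries. It gave 1 to 1 luciferin genes higher and 3 to 11 lower, 1 to 7 ligases higher and 1 to 6 lower, 1 to 11 peroxisome genes lower, 0 to 1 oxidation genes higher and 5 to 16 lower, and 1 to 2 neighbours lower. The luciferin genes higher were 1 at a pseudocount of 0.1, 1 with no filter and 1 with the replicate block. The luciferin genes lower were 6 after quantile normalization, 6 with a minimum of 5 FPKM (which tests fewer genes) and 7 with the replicate block. Quantile normalization gave 8 ligases, 2 peroxisome genes and 2 oxidation genes higher, and median-of-ratios rescaling gave 1 peroxisome gene and 2 oxidation genes higher. The cause of these changes was not tested. The share of calls that were higher was 36.2% with the values as deposited (median difference of all genes -0.095). It was 46.3% with median-of-ratios rescaling (median -0.003) and 52.8% with quantile normalization (median 0.068).

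Same-numbered libraries had correlations of deviations from their organ means of -0.111, -0.00869 and -0.166. The labels do not say what a replicate number marks. Whether same-numbered libraries are paired, such as by animal, cannot be told from these 3 values. With the replicate block, 1996 genes were called, 1 ligase was higher, 0 oxidation genes were higher and 2 neighbours were lower. The value of a member with the fewest reads rested on 171. The summed fat body markers, luminous minus non-luminous mean, came to 312.5 FPKM with all 10 and -287 FPKM without RI129_001986, an alternative chosen after seeing the data.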
